A study of Mus musculus with 8 samples.

Results

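RNA was sequenced from mpkCCD cells, an immortalized mouse line with the character of principal cells of the kidney collecting duct, and 36 genes of glycolysis and of the response to low oxygen were followed in it. The genes were taken by name from these 2 pathways: 17 glycolytic enzymes with lactate dehydrogenase, 4 regulators of flux through the pathway, 4 oxygen-sensing factors and 11 other targets of the hypoxia-inducible factors (HIF). All 36 were found among the 55414 genes of the tables, on 37 rows, because 2 rows carry the name Aldoa. One group of 4 libraries came from cells given dDAVP, a vasopressin analogue that activates the V2 receptor, and the other group of 4 from cells given tolvaptan, an antagonist of that receptor, together with dDAVP. Both groups were thus exposed to dDAVP, and no untreated cells were compared. The labels give neither dose nor duration, though the paper states both for its own RNA-seq experiment. The cells are a single cultured line, and nothing in the labels shows that the libraries are separate cultures, so a p-value here reflects library-to-library spread, which may be only technical.

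Glycolysis splits glucose into pyruvate in the cytosol, and lactate dehydrogenase turns pyruvate into lactate. When oxygen is low, the HIF alpha subunits are no longer hydroxylated and destroyed, and they switch on many glycolytic enzymes together with genes for blood vessel growth, mitophagy and collagen modification. HIF alpha is controlled mostly at the level of the protein, so the level of its transcript says little about its activity. The medulla of the kidney, through which the collecting duct runs, is known for low oxygen and for a reliance on glycolysis. The mpkCCD line, however, was derived from collecting ducts of the cortex, as the paper states.

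Total expected counts per library ranged from 46189122 to 56203831 with dDAVP alone and from 41179682 to 49720493 with tolvaptan. Of 13 markers of the principal cell, 10 were above 1 TPM on average (a level corrected for gene length and library size), with a summed level of 9105 to 11347 TPM in the dDAVP libraries and 9512 to 12036 TPM in the tolvaptan libraries. Scnn1b, Kcnj1 and Elf5 were under 1 TPM. Most of the principal cell sum was Aqp2, at 7771 to 10462 TPM. Summed markers were at 36.5 to 118 TPM for intercalated cells and at most 11.8 TPM for proximal tubule, 0.99 TPM for loop and distal tubule, 0.60 TPM for stroma and endothelium, and 7.02 TPM for immune cells. The intercalated sum was mostly Atp6v1b1, at 30.9 to 112 TPM, while Slc4a1, Slc26a4, Foxi1, Atp6v0d2 and Atp6v1g3 were under 1 TPM. The proximal tubule sum was nearly all Lrp2. The immune sum, nearly all of it Cd68, was 4.48 to 5.79 TPM with dDAVP alone and 6.13 to 7.02 TPM with tolvaptan, and its part in the results was not tested. No marker of any list passed the test.

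The comparison asked whether these transcripts changed when tolvaptan was added to dDAVP. How far the V2 receptor was blocked in these cells was not measured. The paper cites Aqp2 as a transcript that vasopressin increases and lists it among those lowered by tolvaptan. Its lists rest on cutoffs for fold change and p-value that were not used here. The paper also names a different deposit for its sequencing data, so its libraries may not be the ones compared here. Here Aqp2 was at 8947 ± 871 TPM with dDAVP alone and 9439 ± 1014 TPM with tolvaptan. Its groups overlapped, and it was not called (edgeR log2 fold change 0.05, adjusted p = 0.857). P4ha1, which encodes a catalytic subunit of the collagen prolyl 4-hydroxylase, fell, and no other member passed the test. Of the 35 members with enough counts to be tested, 1 was called lower and 0 higher at an adjusted p under 0.05 (edgeR quasi-likelihood test, Benjamini-Hochberg adjusted over all 14772 tested genes), where 0.399% of all tested genes were called in either direction with 0.217% called lower and 0.183% higher. None of the 20 tested enzymes and flux regulators passed. Before adjustment, 2 of these 20 and 3 of the 15 HIF factors and targets had a p under 0.05, all in the lower direction, where 11.2% of all tested genes had one, 4.74% lower and 6.44% higher. The log2 fold change lay below 0 for 15 of 20 enzymes and flux regulators and for 14 of 15 HIF factors and targets, against 51.7% of all tested genes. The medians were -0.05 and -0.15, and that of all tested genes was -0.00. When 1 library was left out, the former ran from -0.09 to -0.03 and the latter from -0.17 to -0.075, the value without tolvaptan replicate 1. The gene lists were chosen with earlier results of these data known. Many enzymes were also high or low in the same libraries, so these counts and medians are descriptions only. In bulk RNA, fewer cells of a kind and less RNA per cell cannot be told apart.

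HIF binds a short core sequence, ACGTG or GCGTG, called the hypoxia response element. RefSeq start-site windows (GRCm38.p6, 250 bases before to 50 after the start) were found for 33 of the 36 members. Bnip3l, Epas1 and Ndrg1 had none. With 1 window per gene, at its most upstream start site, and both strands read, ACGTG or its reverse complement CACGT stood in 18 of 33 members, or 54.5%, and in 19.6% of 27025 genes. GCGTG or its reverse complement CACGC stood in 19 members, or 57.6%, and in 32.5% of all genes. The shares were higher among the 12 HIF factors and targets, 75.0% and 66.7%, than among the 21 enzymes and flux regulators, 42.9% and 52.4%, without a test of the difference. Those 12 were listed because of their known tie to HIF, and the 27025 genes were not limited to genes expressed here. The shares are therefore descriptions only. The windows below belong to the 4 members of lowest p that hold a match, with every match in capitals and are shown to let P4ha1, the called gene, be read beside 3 genes that were not called. Vegfa had a lower p than those 3, but its most upstream window holds neither core. A match describes letters in a window, not a bound site.

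P4ha1: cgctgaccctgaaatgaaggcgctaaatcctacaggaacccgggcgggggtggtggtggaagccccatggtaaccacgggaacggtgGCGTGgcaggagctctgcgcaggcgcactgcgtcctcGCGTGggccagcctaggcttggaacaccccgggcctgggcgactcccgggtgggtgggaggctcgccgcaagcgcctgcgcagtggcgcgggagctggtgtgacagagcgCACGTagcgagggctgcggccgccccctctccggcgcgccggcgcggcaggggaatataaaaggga
P4ha2: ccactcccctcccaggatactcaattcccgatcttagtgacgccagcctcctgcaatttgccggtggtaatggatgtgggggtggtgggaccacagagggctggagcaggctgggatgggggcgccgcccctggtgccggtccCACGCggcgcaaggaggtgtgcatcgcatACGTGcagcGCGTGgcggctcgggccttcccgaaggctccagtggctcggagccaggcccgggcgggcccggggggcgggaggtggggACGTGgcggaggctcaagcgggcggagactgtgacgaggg
Pgam1: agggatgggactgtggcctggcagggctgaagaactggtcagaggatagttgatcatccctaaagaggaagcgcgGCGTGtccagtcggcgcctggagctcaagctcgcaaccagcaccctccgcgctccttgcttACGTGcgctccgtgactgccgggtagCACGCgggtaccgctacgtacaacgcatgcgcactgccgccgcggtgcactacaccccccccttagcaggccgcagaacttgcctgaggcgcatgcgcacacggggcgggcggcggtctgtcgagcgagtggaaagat
Eno1: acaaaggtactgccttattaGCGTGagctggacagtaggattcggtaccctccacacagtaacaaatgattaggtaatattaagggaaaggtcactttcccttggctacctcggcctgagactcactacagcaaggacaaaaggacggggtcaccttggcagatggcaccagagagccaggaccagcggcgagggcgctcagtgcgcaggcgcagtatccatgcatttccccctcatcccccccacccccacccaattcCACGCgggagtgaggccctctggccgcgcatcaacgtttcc

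The P4ha1 window, at chr10:59323046-59323345 on the plus strand, holds GCGTG at positions -163 and -126 from the start and CACGT at -16. The P4ha2 window, at chr11:54100674-54100973 on the plus strand, holds CACGC at -107, ACGTG at -78 and 11, and GCGTG at -69. Those of Pgam1, at chr19:41911621-41911920, and Eno1, at chr4:150236458-150236757, are also on the plus strand. Eno1 has 3 annotated starts, and its window holds GCGTG and CACGC but not ACGTG.

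The mean level of the glycolytic enzymes over the 8 libraries ran from 0.115 TPM for Ldhb to 1961 TPM for Pkm. Their summed level was 8734, 8188, 7760 and 9144 TPM in dDAVP replicates 1 to 4 and 8237, 7798, 7859 and 8796 TPM in tolvaptan replicates 1 to 4, or 8456 ± 607 against 8173 ± 459 TPM (SD, n = 4 each), which made up 0.831% of a library on average. The 2 ranges overlapped almost completely. Within the dDAVP group replicate 4 was the highest library for 11 of 16 tested enzymes and replicate 3 the lowest for 10, and within the tolvaptan group replicate 4 was the highest for 10, so that the same libraries were high or low for many enzymes.

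**Figure D1:**
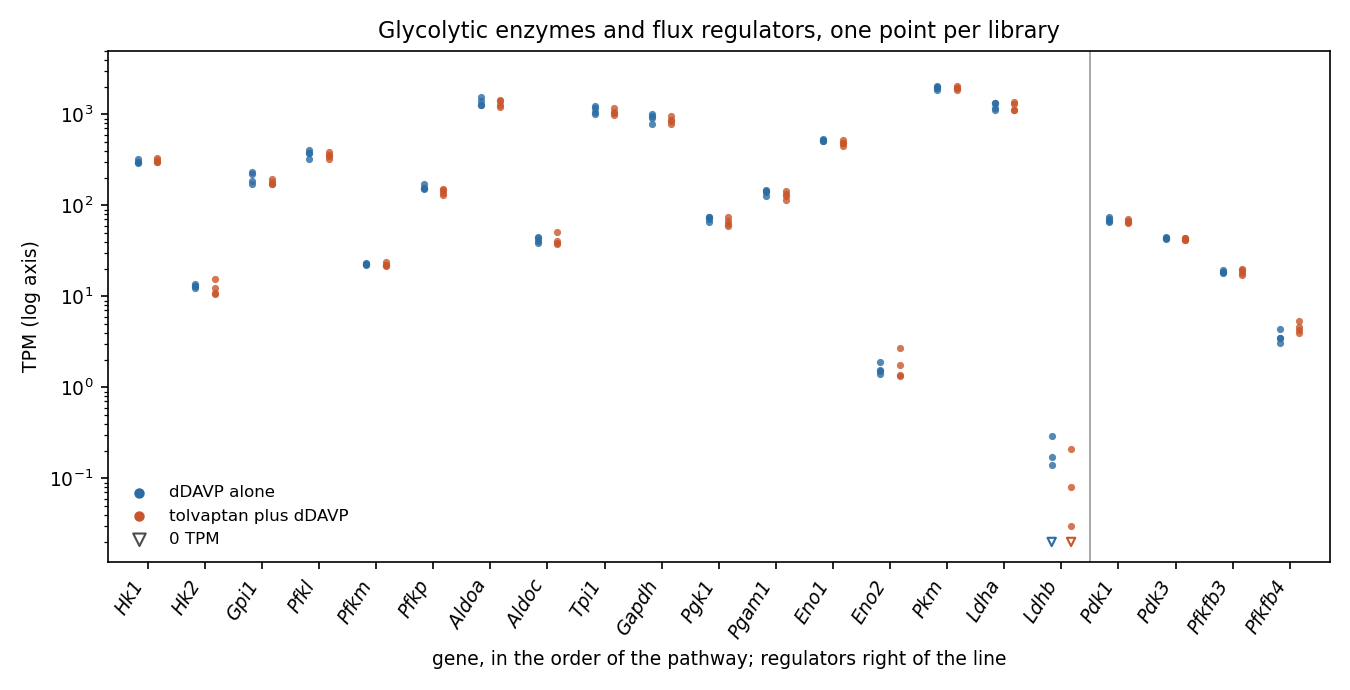
Level of the 17 glycolytic enzymes, in pathway order, and the 4 flux regulators in each library, in TPM on a log axis; each point is 1 library, blue for dDAVP alone and orange for tolvaptan plus dDAVP, and open triangles mark 0 TPM. Pkm, Aldoa, Ldha and Tpi1 lay highest and Ldhb lowest, and the groups overlapped for every gene.

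Hexokinase, which traps glucose in the cell as glucose 6-phosphate, was almost entirely Hk1 (95.7% of the summed hexokinase TPM with dDAVP alone, 95.9% with tolvaptan). Hk1 was at 288, 296, 299 and 321 TPM with dDAVP alone and at 312, 301, 297 and 330 TPM with tolvaptan. The groups overlapped, and the log2 fold change was 0.04 (standard error 0.05, adjusted p = 0.790). Hk2, the hexokinase most often named as a HIF target, was at 13.0 ± 0.592 and 12.3 ± 2.31 TPM (SD, n = 4). Gpi1, the isomerase that makes fructose 6-phosphate, was at 220, 183, 172 and 233 TPM with dDAVP alone and at 183, 173, 172 and 195 TPM with tolvaptan. Its dDAVP libraries spread over a wider range than its tolvaptan libraries and enclosed all of them, and its log2 fold change of -0.15 (standard error 0.09) had an adjusted p of 0.586.

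Phosphofructokinase catalyses the committed step, and 3 genes encode its subunits. The liver type Pfkl held 67.2% of the summed TPM with dDAVP alone and 68.5% with tolvaptan, the platelet type Pfkp 28.6% and 27.2%, and the muscle type Pfkm 4.13% and 4.31%. Pfkl was at 381, 373, 327 and 403 TPM with dDAVP alone and at 361, 326, 351 and 386 TPM with tolvaptan, and the groups overlapped (log2 fold change -0.05, standard error 0.08). Pfkp was at 154, 150, 155 and 172 TPM against 148, 129, 137 and 152 TPM. It had the largest fold change in size of all enzymes and flux regulators, -0.16 (standard error 0.08), and the test across all genes did not call it (adjusted p = 0.465). Libraries were not stranded, and exons of Pfkp overlap those of Pitrm1 on the opposite strand, which had a log2 fold change of -0.01. Pfkm likewise overlaps Senp1, which had 392% of the counts of Pfkm.

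Aldolase splits the 6-carbon sugar, and Aldoa made up 97.0% of aldolase TPM with dDAVP alone and 96.9% with tolvaptan. Aldoa (ENSMUSG00000030695) was at 1407, 1277, 1254 and 1550 TPM with dDAVP alone and at 1386, 1212, 1257 and 1424 TPM with tolvaptan. The groups overlapped (log2 fold change -0.08, standard error 0.07, adjusted p = 0.710). The other row named Aldoa (ENSMUSG00000114515) had 0.122% of the counts of the first and was at 3.38 to 3.85 TPM with dDAVP alone and at 3.86 to 6.20 TPM with tolvaptan. Its groups did not overlap, which on the log2 CPM scale (counts scaled to library size) held for 7.76% of all tested genes in either direction and for 3.99% in the higher, and its log2 fold change of 0.34 (standard error 0.17) had an adjusted p of 0.484. Aldoc was at 42.0 ± 3.04 and 42.0 ± 6.32 TPM.

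The later part of the pathway, in which ATP is made, gave small differences. Tpi1, which interconverts the 3-carbon sugars, was at 1109 ± 103 and 1065 ± 76.6 TPM. Gapdh, which oxidises glyceraldehyde 3-phosphate and is often used as a reference gene, was at 913 ± 101 TPM with dDAVP alone and 869 ± 74.0 TPM with tolvaptan, a log2 difference of -0.09 (95% interval -0.28 to 0.09). Pgk1, which makes the first ATP, was at 71.1 ± 3.76 and 66.4 ± 6.63 TPM (log2 fold change -0.12). Its tolvaptan replicate 1, at 60.0 TPM, was the lowest of the 8 libraries.

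Pgam1, the mutase that moves the phosphate of 3-phosphoglycerate, made up 95.7% of the mutase TPM with dDAVP alone and 95.5% with tolvaptan. Pgam1 (ENSMUSG00000011752) was at 141, 144, 148 and 127 TPM with dDAVP alone and at 116, 126, 144 and 132 TPM with tolvaptan. In counts scaled to library size (CPM) the groups separated, at 73.9 to 75.9 CPM and 60.4 to 72.2 CPM, whereas in TPM they overlapped. With a log2 fold change of -0.16 (standard error 0.06, adjusted p = 0.326) it was not called. With the low row named Aldoa set aside, which was higher with tolvaptan, Pgam1 was the only tested enzyme whose log2 CPM did not overlap between groups. The same held for 3.77% of all tested genes in the direction of Pgam1.

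Enolase makes phosphoenolpyruvate. Eno1 (ENSMUSG00000063524) held 78.8% of enolase TPM with dDAVP alone and 77.7% with tolvaptan, and its near-identical copy Eno1b held 17.3% and 18.0%. Eno1 was at 527, 532, 511 and 513 TPM with dDAVP alone and at 445, 482, 479 and 525 TPM with tolvaptan. The dDAVP libraries lay close together, 3 of the tolvaptan libraries lay below all of them, and tolvaptan replicate 4 lay among them. The difference, -0.14 on the log2 scale (standard error 0.06, adjusted p = 0.398), was not called. Reads of Eno1 and Eno1b can be split between the copies, and the log2 fold change of Eno1b was -0.05. The neuronal enolase Eno2 was at only 1.59 ± 0.218 and 1.79 ± 0.649 TPM.

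No member of the last steps passed the test. Pkm, the pyruvate kinase of most tissues, was the most abundant member, at 2023, 1951, 1852 and 2073 TPM with dDAVP alone and at 1958, 1950, 1835 and 2045 TPM with tolvaptan. Its groups overlapped (log2 fold change -0.04, standard error 0.05, adjusted p = 0.800). The liver and red cell enzyme Pklr took the remaining 3.82% to 11.3% of pyruvate kinase TPM, the highest share being in dDAVP replicate 2, where it reached 248 TPM. This share holds for TPM only, since Pklr had 234 to 921 expected counts per library and Pkm had 99546 to 147954. Ldha, the lactate dehydrogenase subunit that HIF induces, was at 1326, 1184, 1119 and 1349 TPM with dDAVP alone and at 1351, 1116, 1124 and 1315 TPM with tolvaptan, a log2 fold change of -0.04 (standard error 0.07). Both groups of Ldha held a high pair and a low pair of libraries. Ldhb, its partner subunit, gave 12 expected counts over the dDAVP libraries and 6 over the tolvaptan libraries and was the one member too low to test. Lactate dehydrogenase transcripts were thus 99.99% Ldha on average in each group.

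Among the 15 enzymes with a mean level of 10 TPM or more, the 95% intervals of the log2 fold change ran from -0.35, the lower bound of Gpi1, to 0.20, the upper bound of Aldoc. The flux regulators were alike. Pdk1 and Pdk3, kinases that shut off pyruvate dehydrogenase, were at 69.4 ± 4.11 and 67.2 ± 3.01 TPM and at 43.7 ± 1.03 and 42.8 ± 1.36 TPM. The non-member Pdk2 was the most abundant kinase of that family, at 46.6% of its TPM with dDAVP alone, ahead of Pdk1 at 32.8%. Pfkfb3 and Pfkfb4 make fructose 2,6-bisphosphate, the activator of phosphofructokinase. Pfkfb3 held 48.2% of its family's TPM with dDAVP alone and 48.0% with tolvaptan. It was at 18.0, 19.4, 18.5 and 18.7 TPM with dDAVP alone and at 20.2, 19.7, 18.1 and 17.3 TPM with tolvaptan, and Pfkfb4 was at 3.63 ± 0.551 and 4.55 ± 0.579 TPM (log2 fold change 0.15, adjusted p = 0.638).

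**Figure D2:**
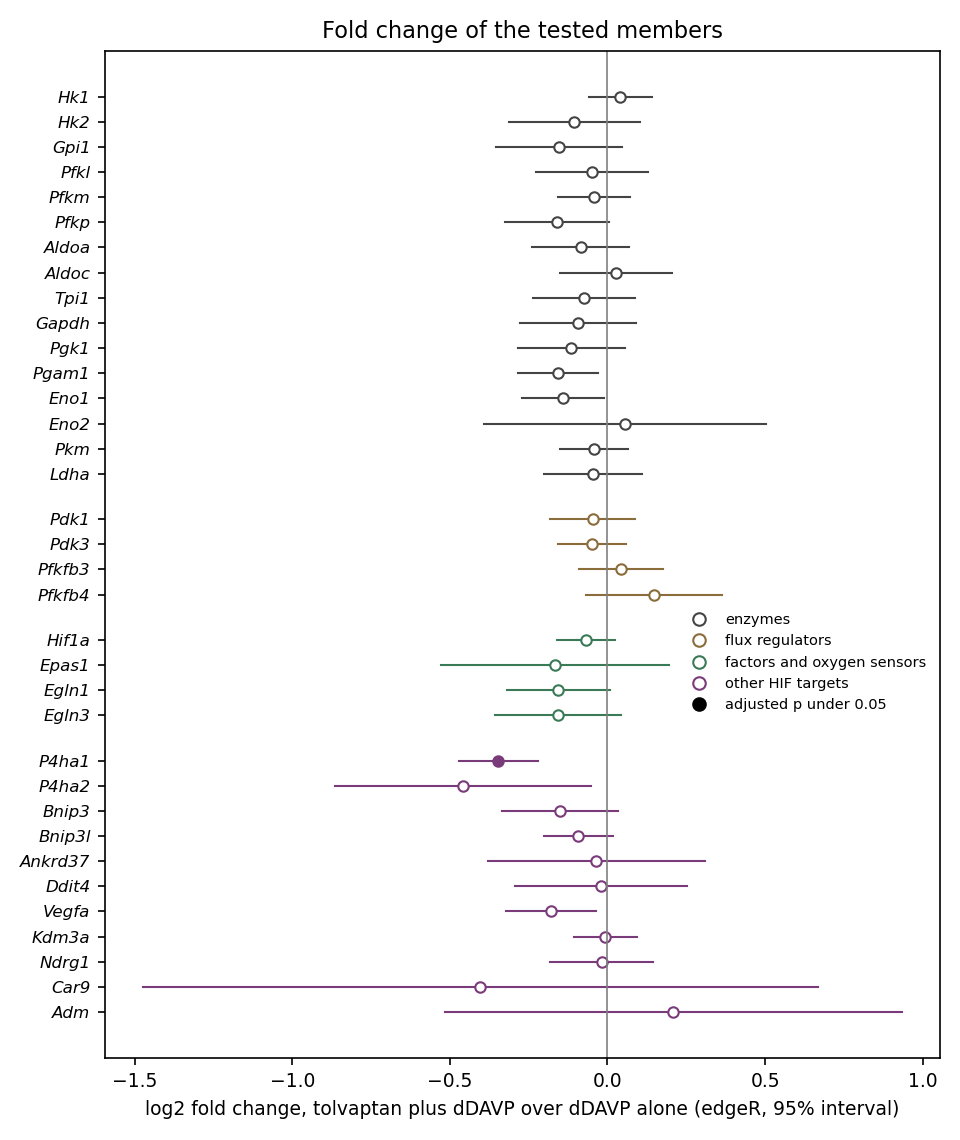
Fitted log2 fold change of the 35 tested members, tolvaptan plus dDAVP over dDAVP alone, with its 95% interval as a horizontal line; colours mark the 4 kinds of member and a filled point an adjusted p under 0.05. Most points lie slightly left of 0, P4ha1 at -0.35 is the single filled point, and the intervals of Car9 and Adm are the widest.

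The HIF alpha subunits and the enzymes that sense oxygen came next. Hif1a held 99.0% of HIF alpha TPM with dDAVP alone and 98.9% with tolvaptan. It was at 140, 140, 149 and 143 TPM with dDAVP alone and at 140, 132, 135 and 133 TPM with tolvaptan, so that 3 of the 4 tolvaptan libraries lay below every dDAVP library. Hif1a was not called (log2 fold change -0.07, standard error 0.04, adjusted p = 0.599). Epas1, which encodes HIF-2 alpha, was at 0.665 ± 0.0451 and 0.708 ± 0.166 TPM. Its expected counts of 126, 97, 104 and 93 against 60, 79, 105 and 105 gave a log2 fold change of -0.17, so its TPM and its counts differed in direction. The 95% interval ran from -0.53 to 0.19.

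Egln1 and Egln3 are prolyl hydroxylases that mark HIF alpha for destruction when oxygen is present, and Egln3 is itself a HIF target. Egln2, their relative outside the member list, held most of the family's TPM, at 59.7% with dDAVP alone and 64.1% with tolvaptan. Egln1 was at 31.3 ± 2.74 and 28.1 ± 1.80 TPM (log2 fold change -0.16, adjusted p = 0.471) and Egln3 at 14.5 ± 1.30 and 13.0 ± 1.16 TPM (log2 fold change -0.16, adjusted p = 0.571). Neither passed the test. The summed level of these 4 factors and sensors, most of it Hif1a, was 185 to 193 TPM with dDAVP alone. With tolvaptan it was 173 to 179 TPM, and the ranges did not overlap, although each of the 4 genes alone overlapped between groups in TPM and none passed. The sums of the enzymes, of the flux regulators and of the other HIF targets overlapped. Among single genes, 3.77% of all tested genes did not overlap in the lower direction on the log2 CPM scale.

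P4ha1 was the member that passed. It encodes the main alpha subunit of the enzyme that hydroxylates proline in collagen in the endoplasmic reticulum, and it is a long-known HIF target. P4ha1 (ENSMUSG00000019916) was at 48.1, 47.7, 42.2 and 48.9 TPM in dDAVP replicates 1 to 4 and at 37.2, 37.6, 36.5 and 36.5 TPM in tolvaptan replicates 1 to 4. Every tolvaptan library lay below every dDAVP library, and the tolvaptan libraries lay close to one another, 36.9 ± 0.560 against 46.7 ± 3.04 TPM (SD, n = 4). P4ha1 fell by 0.35 on the log2 scale, with a standard error of 0.06, a 95% interval from -0.47 to -0.22 and an adjusted p of 0.0249 (edgeR). No other annotated gene was found to share its exons.

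The size of the fall was steadier than its place relative to the threshold. The log2 fold change was negative in all 17 other fits, and without 1 library at a time it ran from -0.39 to -0.31. The adjusted p was over 0.05 in 6 of the 8 fits that left out a library, from 0.0597 to 0.120, the exceptions being those without dDAVP replicate 3 (0.0184) and without tolvaptan replicate 1 (0.0286). In all it was under 0.05 in 8 of the 17 other fits. It was over 0.05 with limma on log2(TPM + 1), at 0.0613, and with a pseudocount of 0.1, at 0.0580. It was far lower with DESeq2, at 2.06e-05, and with edgeR on all genes without a filter on low counts, at 5.97e-05.

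**Figure D3:**
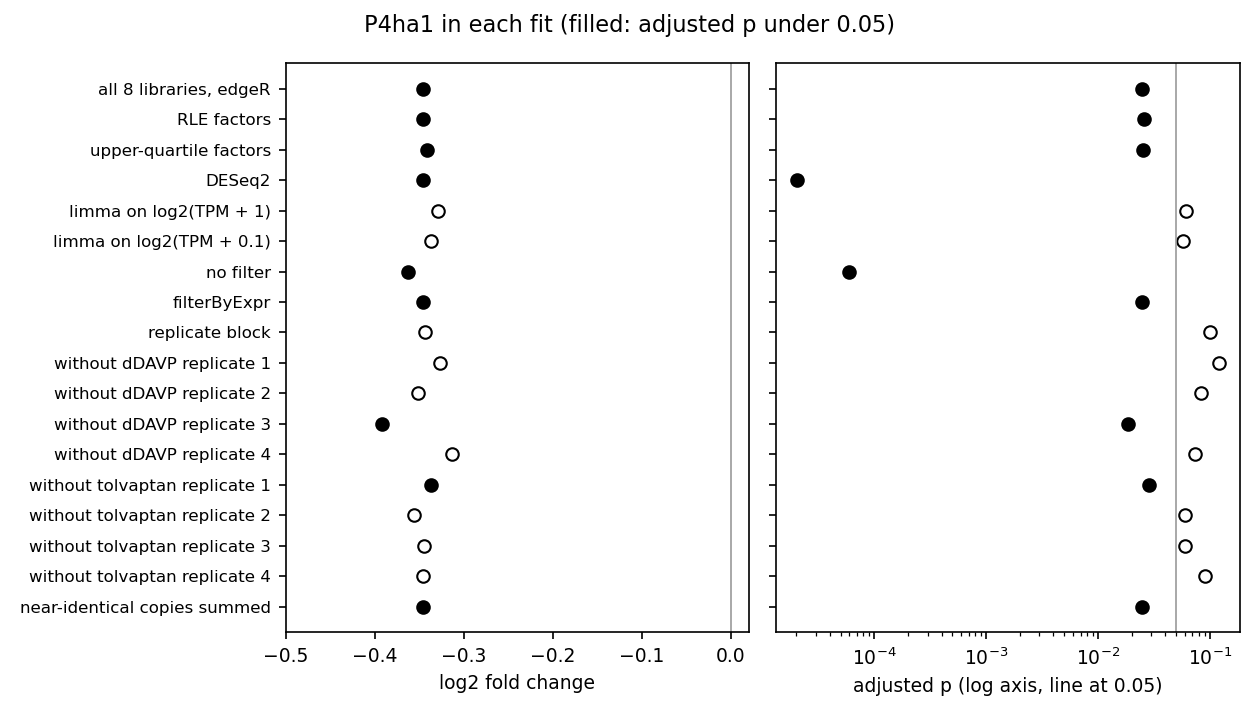
Log2 fold change of P4ha1 (left, tolvaptan plus dDAVP over dDAVP alone) and its adjusted p (right, log axis, line at 0.05) in the fit reported and in each of 17 other fits; filled points have an adjusted p under 0.05. The fold changes lie between -0.39 and -0.31, and the adjusted p lies on both sides of the line.

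P4ha2 encodes the other widely expressed alpha subunit and lay about an order of magnitude below P4ha1. P4ha2 (ENSMUSG00000018906) was at 4.44, 2.94, 2.78 and 3.42 TPM with dDAVP alone and at 2.24, 2.82, 1.90 and 2.62 TPM with tolvaptan. The groups touched at 1 library each, dDAVP replicate 3 and tolvaptan replicate 2. Its log2 fold change of -0.46 was the largest in size of all members, with a standard error of 0.19, and it did not pass the test (adjusted p = 0.378).

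Vegfa, the growth factor for blood vessels that is the classical HIF target, had the lowest p after P4ha1. Vegfa (ENSMUSG00000023951) was at 49.4, 47.8, 54.3 and 60.4 TPM with dDAVP alone and at 49.2, 48.5, 47.4 and 46.0 TPM with tolvaptan. The groups overlapped, and dDAVP replicates 3 and 4 lay above the other 6 libraries. Vegfa did not pass either (log2 fold change -0.18, standard error 0.07, adjusted p = 0.318).

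**Figure D4:**
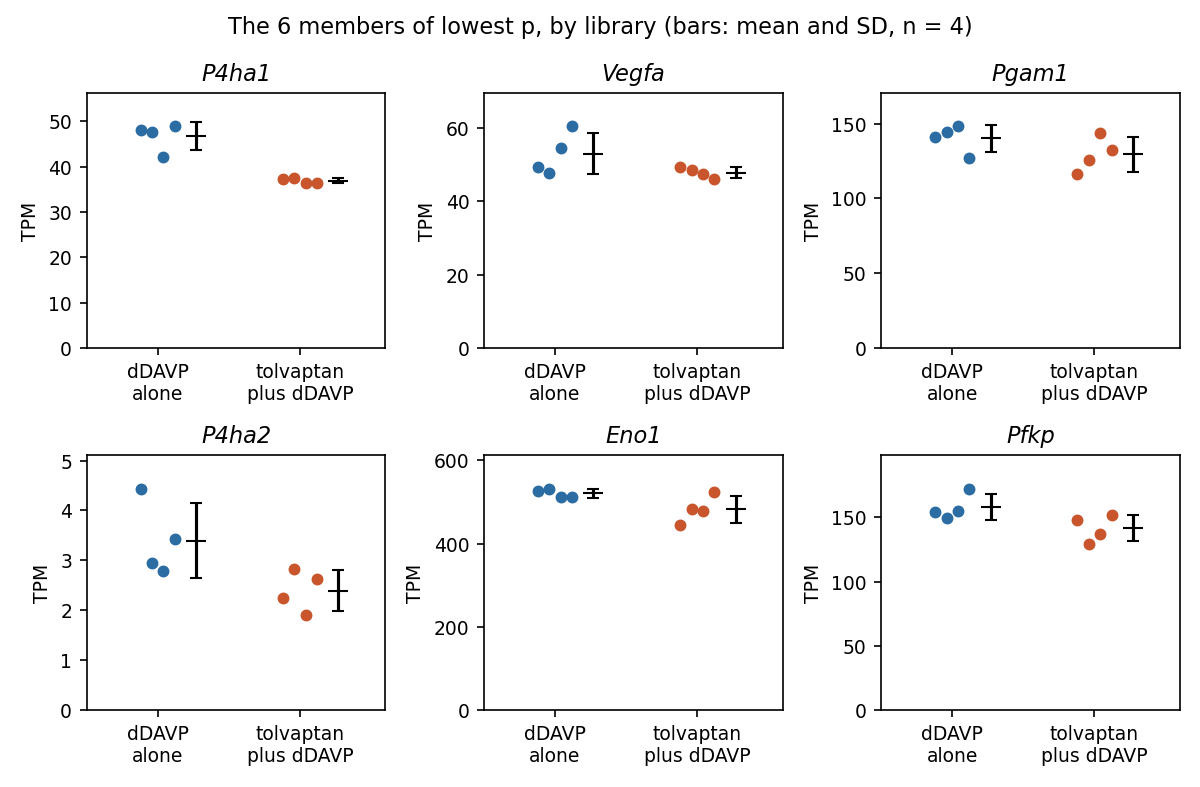
Level of the 6 members of lowest p in each library, in TPM from 0; points are libraries in replicate order, and the bars beside them give the mean and SD (n = 4). The groups are apart for P4ha1, at 42.2 to 48.9 against 36.5 to 37.6 TPM, and overlap for the other 5 genes.

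Bnip3 and Bnip3l, mitochondrial proteins that mark mitochondria for mitophagy, did not pass. Bnip3 was at 78.9 ± 6.80 and 73.5 ± 7.99 TPM (log2 fold change -0.15, adjusted p = 0.554). Bnip3l was at 123 to 184 TPM with dDAVP alone and at 123 to 154 TPM with tolvaptan, while its counts were more even, at 146 to 155 and 131 to 147 CPM. Its log2 fold change, fitted to the counts, was -0.09 with an adjusted p of 0.543.

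Of the remaining targets, Ddit4, an inhibitor of mTORC1, was at 66.1 ± 10.1 and 65.7 ± 11.5 TPM, and replicate 2 was the highest library of each group, at 80.4 and 82.0 TPM. Kdm3a, a histone H3 lysine 9 demethylase, was at 69.4 ± 2.00 and 71.6 ± 2.98 TPM with a log2 fold change of -0.01. Ndrg1, a stress-responsive gene and the most abundant member outside the enzymes, was at 491 ± 52.9 and 490 ± 42.1 TPM. The paper lists Ndrg1 among the transcripts lowered by tolvaptan, by cutoffs of its own. Here the groups of Ndrg1 overlapped, and it was not called (edgeR log2 fold change -0.02, adjusted p = 0.954). Ankrd37 was at 6.48 ± 0.978 and 6.02 ± 1.58 TPM, and its exons overlap those of Ufsp2, a far more abundant gene on the opposite strand.

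Car9 and Adm, which hypoxia induces strongly in many cells, were almost silent here. Car9, a cell surface carbonic anhydrase, was at 0.45, 0.25, 0.27 and 0.28 TPM with dDAVP alone and at 0.36, 0.10, 0.46 and 0.26 TPM with tolvaptan, from 4 to 17 expected counts per library. The groups overlapped, and its log2 fold change of -0.40 had a 95% interval from -1.47 to 0.67. Exons of Car9 overlap those of Gm12454 on the opposite strand, which had 400% of the counts of Car9. Adm, which encodes the peptide adrenomedullin, was at 0.825 ± 0.376 and 1.03 ± 0.180 TPM, with 113 counts over the dDAVP libraries and 120 over the tolvaptan libraries. Its log2 fold change of 0.21 had a 95% interval from -0.52 to 0.93, and differences within intervals as wide as these were not detectable at this depth.

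The HIF factors and targets differed among the tolvaptan libraries. Measured from the dDAVP mean on the log2 CPM scale, the median of these 15 genes was -0.27 in tolvaptan replicate 1, -0.11 in replicate 2, -0.08 in replicate 3 and -0.07 in replicate 4. In replicate 3 all 15 genes lay below the dDAVP mean. Without tolvaptan replicate 1 the median fold change of these genes was -0.075 instead of -0.15. For the 16 tested enzymes the same medians were -0.07, -0.13, -0.11 and 0.05, and in tolvaptan replicate 4 the enzymes were above the dDAVP mean in 10 of 16 cases. For the enzymes, single dDAVP libraries departed by similar amounts, from -0.10 in replicate 3 to 0.09 in replicate 4. For the HIF factors and targets the dDAVP medians were 0.04, -0.03, 0.01 and 0.10 in replicates 1 to 4. The dDAVP libraries set the mean from which all were measured.

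**Figure D5:**
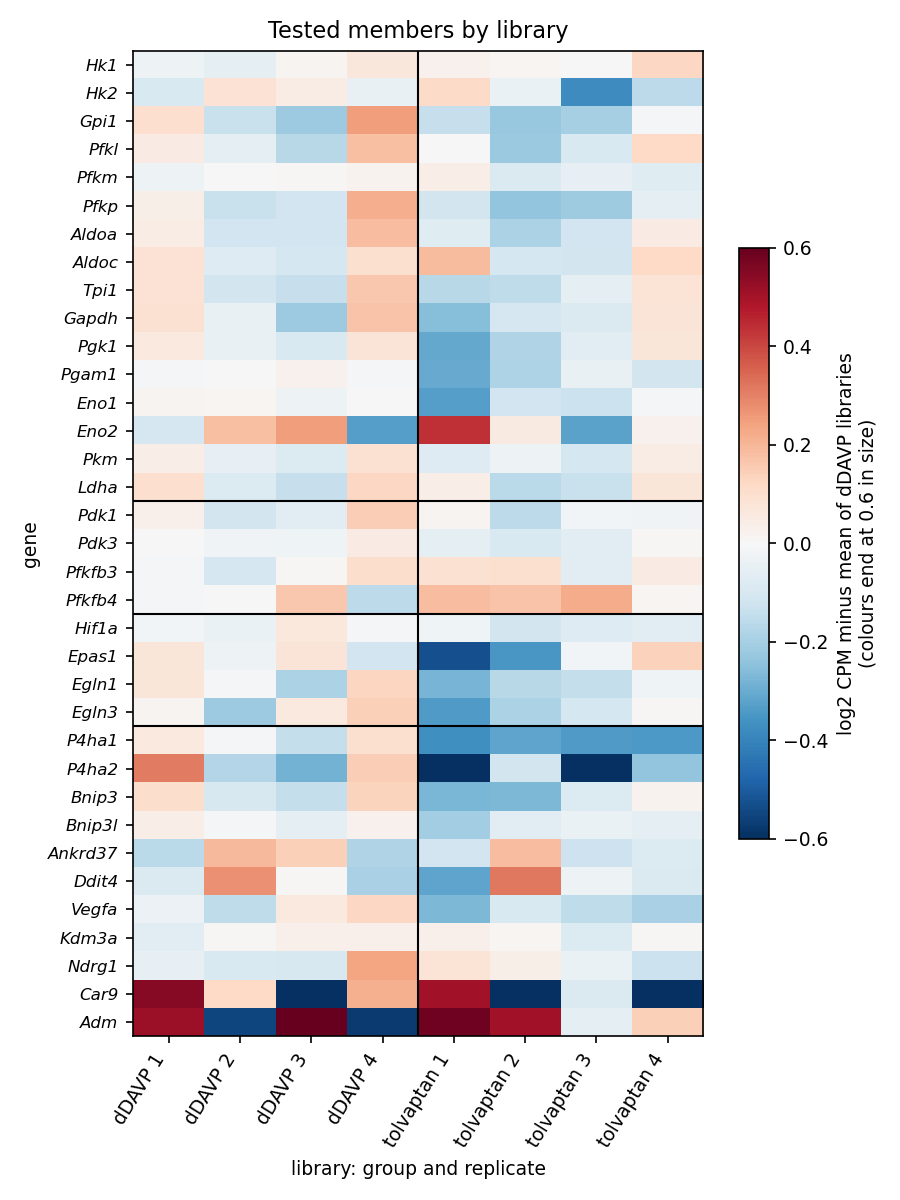
Log2 CPM of the 35 tested members (rows, by kind) in each library (columns), minus the mean of the dDAVP libraries; red is higher, blue lower, and colours end at 0.6 in size. P4ha1 is blue in all 4 tolvaptan libraries, tolvaptan replicate 1 is the bluest column for the HIF factors and targets, and dDAVP replicate 4 is red for most enzymes.

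Further genes of the same pathways, in lists chosen with earlier results of these data known, gave no call in either direction. Of these 98 genes, 76 could be tested. Before adjustment 8 were lower and 2 higher at p under 0.05, beside 4.74% lower and 6.44% higher of all tested genes. Of the 76, 45 lay below 0, beside 51.7% of all tested genes, and their median was -0.04. None of 7 genes of the pentose phosphate pathway and none of 4 tested genes of gluconeogenesis had such a p. Among glucose and lactate carriers, Slc2a1, the HIF-induced glucose transporter GLUT1, was at 50.6 ± 1.54 and 46.9 ± 5.75 TPM (log2 fold change -0.20, adjusted p = 0.304). Slc16a3, a lactate exporter, was at 0.307 ± 0.0714 and 0.370 ± 0.117 TPM, while its counts gave the opposite direction and no call (log2 fold change -0.56, adjusted p = 0.417). Among partners of pyruvate dehydrogenase, Dlat, a subunit of the complex, was at 97.4 ± 3.88 and 88.6 ± 9.98 TPM (adjusted p = 0.414), and Pdp2, a phosphatase that switches the complex on, at 5.28 ± 0.595 and 6.35 ± 0.142 TPM (log2 fold change 0.26, adjusted p = 0.200).

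Of the HIF regulators, Hif1an had the lowest p. It encodes the asparaginyl hydroxylase FIH, which blocks the activity of HIF alpha, and was at 43.2, 47.9, 41.9 and 40.9 TPM with dDAVP alone and at 64.4, 52.0, 48.6 and 50.1 TPM with tolvaptan. The groups did not overlap, as for 3.99% of all tested genes in that direction, and tolvaptan replicate 1 was far above the rest. The log2 fold change of 0.32 (standard error 0.08) had an adjusted p of 0.124. Arnt, the beta subunit with which HIF alpha pairs, was at 66.0 ± 1.80 and 69.7 ± 5.55 TPM.

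Among 24 tested further HIF targets, 17 lay below 0 (51.7% of all tested genes did), with a median of -0.08. Before adjustment 5 had a p under 0.05, all of them lower, as did 4.74% of all tested genes in that direction, and the groups did not overlap on the log2 CPM scale for 4 of the 24, against 3.77% of all tested genes. Edn1, the precursor of the vasoconstrictor endothelin 1, was at 6.52 ± 0.755 and 5.20 ± 0.649 TPM (log2 fold change -0.34, adjusted p = 0.277). Fam162a, a mitochondrial protein induced by hypoxia, was at 304 ± 39.3 and 253 ± 48.0 TPM (log2 fold change -0.32, adjusted p = 0.427). Bhlhe40, a transcriptional repressor also known as DEC1, was at 76.2, 76.0, 78.8 and 68.5 TPM with dDAVP alone and at 52.4, 67.1, 61.8 and 60.5 TPM with tolvaptan. Its groups did not overlap, and it was not called (log2 fold change -0.32, adjusted p = 0.118).

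Hilpda and Ero1a were chosen after their values were seen, because they complete the 5. Hilpda, which protects lipid droplets by inhibiting their lipase, was at 107, 118, 115 and 115 TPM with dDAVP alone and at 92.4, 98.8, 92.7 and 96.9 TPM with tolvaptan. All 4 tolvaptan libraries lay below all 4 dDAVP libraries, but the test did not call it (log2 fold change -0.30, standard error 0.06, adjusted p = 0.0793). Ero1a, an oxidase of the endoplasmic reticulum, was at 63.3 ± 4.96 and 54.1 ± 6.49 TPM (log2 fold change -0.13, adjusted p = 0.351). With DESeq2, which called 337 genes (2.58% of those it gave an adjusted p) where edgeR called 59, the adjusted p was 0.00220 for Hilpda, 0.0106 for Bhlhe40 and 0.0169 for Hif1an, while none of the 3 passed in any edgeR fit that left out a library.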

How the data were processed

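RNA-seq of mpkCCD cells was compared between 4 libraries of tolvaptan plus dDAVP and 4 of dDAVP alone, grouped by the sample titles. Per the labels, libraries were made with SMARTer and Nextera XT kits, which do not mark strand. STAR and RSEM are named in the submitters' processing notes, with no version given. The authors deposited expected counts per gene, not normalized, and TPM values, which correct for transcript length and add up to the same total in all libraries. The authors' tables of DESeq2 fold changes with p-values and of term enrichment were not used.

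Expected counts were rounded, and genes were kept with at least 10 counts in 4 or more libraries. These 14772 genes were fitted with edgeR 4.0.16 in R 4.3.3 (TMM, quasi-likelihood, no covariate, two-sided, Benjamini-Hochberg adjusted, threshold 0.05). The study used DESeq2, which is an alternative here (version 1.42.0), beside limma 3.58.1 on log2(TPM + pseudocount). CPM are counts scaled to library size after TMM, with a prior count of 2 on the log2 scale. Members, gene lists and naming rules were chosen with earlier results of these data known. Values per library are given for members with p under 0.05, the 3 largest fold changes in each of the 2 blocks of members, and the most abundant isozymes. From the other pathway lists, genes with p under 0.05 and up to 3 largest fold changes were named. Alternatives were RLE and upper-quartile factors, DESeq2, limma with pseudocounts of 1 and 0.1, no filter, filterByExpr, a replicate block, leaving out each library, and, chosen after seeing the data, summing 26 near-identical copies with their parent genes. Exon overlaps were read from GENCODE M21 (GRCm38), which is not taken to be the annotation of the counts. For windows at start sites, the most upstream of a gene's RefSeq entries was used, a choice made after seeing that an internal one lay in the gene body.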

Additional observations from a re-analysis of the deposited data

Results flagged for a closer look

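In 80 groups of 4 TPM values, those of the members and of their main sums, 2 held a library that stood apart from the others of its group by Dixon's test, which chance alone brings in about 1 of 20 groups. Ndrg1 was at 569.5 TPM in dDAVP replicate 4, and the nearest library of that group was at 473.7 TPM. Car9 was at 0.45 TPM in dDAVP replicate 1, from 17 expected counts, and the nearest was at 0.28 TPM. Neither gene passed the test between groups.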

How the results depend on the processing

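All 17 alternatives ran. The fold change of P4ha1 kept its sign in all of them. Glycolytic enzymes and flux regulators gave 0 calls in every fit. The number of HIF factors and targets called was 1 (P4ha1) with edgeR, and 0 with limma at either pseudocount and with the replicate block, and between 0 and 1 when a library was left out, being 1 only without dDAVP replicate 3 or without tolvaptan replicate 1. Over all genes 59 were called, against 337 with DESeq2 (138 lower, 199 higher), 256 with no filter, 22 with limma on log2(TPM + 1) and 28 with a pseudocount of 0.1; leaving out 1 library gave 20 to 82. The cause of these differences was not tested. The median log2 fold change of the HIF factors and targets ran from -0.17 to -0.07 and that of the enzymes and flux regulators from -0.09 to -0.03 when a library was left out, with -0.075 for the former without tolvaptan replicate 1. Of 35 tested members, 26 kept their sign in every alternative in which they could be tested (13 for Car9), 9 had another sign in at least 1, and none was called only in an alternative. Car9, Epas1, Adm, Eno2 and Ldhb are limited by their low counts.

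Libraries of the same replicate number did not deviate together in every pair, with correlations of their deviations from -0.01 to 0.16 against -0.13 to 0.07 for other pairs, so the numbers were not taken to pair the samples. With the replicate number as a block, 17 genes were called, and P4ha1 was not (log2 fold change -0.34, adjusted p = 0.0996).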
